A study of Mus musculus with 6 samples.

Results

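The costimulatory and checkpoint molecules described here are surface or secreted proteins through which myeloid cells start or restrain immune responses. They were taken from the deposited table by exact gene symbol, and all 10 (Cd274, Pdcd1lg2, Cd80, Cd86, Cd40, Havcr2, Lgals9, Lair1, Sirpa and Cd47) were found among its 37447 rows. RNA came from microglia, macrophages that live in nervous tissue, flow sorted from the optic nerve of C57BL/6 mice aged 3 months. Mice of the FM group (2 libraries) had the genotype Nf1 flox/mut, that is a floxed and a mutant allele of the neurofibromatosis type 1 gene. Mice of the FMC group (4 libraries) carried the same Nf1 flox/mut alleles and in addition the transgene GFAP-Cre, in which an astroglial promoter drives the recombinase, so the sorted microglia are not the cells in which the promoter is known to be active. FM 1 is labelled male and FM 2 female, FMC 2 and FMC 3 male, FMC 1 and FMC 4 female. The labels call the libraries biological replicates without saying whether animals were pooled, so the tests compare libraries and not a known number of animals. The limma fit used below draws each gene's spread toward that of genes of similar level. Its SEs, intervals and p-values therefore do not rest on the gene's own spread alone. The series concerns optic glioma, and setting FMC against FM asks how microglial RNA differs in mice that also carry Cre.

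T cells need a signal from CD80 or CD86 on the presenting cell, received by CD28, in addition to antigen, and CTLA-4 binds the same ligands to restrain them. PD-L1 (Cd274) and PD-L2 (Pdcd1lg2) engage the inhibitory receptor PD-1, and CD40 receives help from T cells through CD40 ligand. TIM-3 (Havcr2), for which galectin-9 (Lgals9) is a described ligand, LAIR-1 (Lair1), a receptor for collagens and C1q, and SIRP alpha (Sirpa), whose ligand CD47 marks cells against phagocytosis, restrain the cells that bear them. Interferon gamma is a known inducer of PD-L1.

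Promoter sequence is shown for Cd274 and Lgals9, because these are the members whose FMC and FM levels did not overlap (values follow). The RefSeq promoter table, build GRCm38.p6, matched 7 of the 10 members, and Cd86, Cd40 and Sirpa had no entry. Each sequence is the 250 bases before the annotated transcription start, written 5′ to 3′ on the gene's strand, and capitals mark a match to the core of the interferon-stimulated response element. The Cd274 window is chr19:29367188-29367437 on the plus strand and the Lgals9 window is chr11:78984925-78985174 on the minus strand.
Cd274: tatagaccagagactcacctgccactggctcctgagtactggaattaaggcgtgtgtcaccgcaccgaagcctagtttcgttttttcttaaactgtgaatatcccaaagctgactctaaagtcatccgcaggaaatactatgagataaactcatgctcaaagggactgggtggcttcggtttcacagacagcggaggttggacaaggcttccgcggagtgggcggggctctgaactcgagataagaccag
Lgals9: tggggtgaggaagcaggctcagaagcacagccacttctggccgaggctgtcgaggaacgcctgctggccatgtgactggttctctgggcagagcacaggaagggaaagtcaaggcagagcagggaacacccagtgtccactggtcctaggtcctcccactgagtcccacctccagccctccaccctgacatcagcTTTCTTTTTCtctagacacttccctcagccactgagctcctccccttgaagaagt
The element was searched as TTTCNNTTTC on both strands. Lgals9 holds 1 match, TTTCTTTTTC, from 55 to 46 bases before the start, and the windows of the other 6 matched members, Cd274 among them, hold none. Of all 32851 windows of this length in the table, 2.98% hold at least 1 match. The core of the gamma-activated sequence, TTCNNNGAA, which reads the same on both strands, had no match in any member window and is in 7.02% of all windows. A match is a stretch of letters and was not tested as a binding site.

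The deposited unit is FPKM, which divides a gene's fragments by its transcript length and by the library's mapped total, so levels can be compared roughly between genes. It does not correct for differences between genes in amplification or in reads shared with related genes. Low values put the other libraries at 1.18 to 3.34 times the depth of FMC 2, with rival estimates from 0.591 to 2.75, so depth is known only roughly. Between 13333 and 15511 genes reached 1 FPKM in a library. All 14 microglia markers were above 0 in every library, with P2ry12, a purinergic receptor of microglia, between 185 and 403 FPKM. Nf1 measured 39.3 and 50.03 FPKM in the FM pair against 48.0 to 138 FPKM across FMC, which does not check a deletion made in astroglial cells, and Gfap was between 0.183 and 3.06 FPKM. In sorted bulk RNA, fewer cells of a type and less RNA per cell cannot be told apart, and this holds for every level that follows.

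The members ranged from among the most abundant transcripts to close to 0, and both PD-1 ligands were the lowest. By the median over 6 libraries Lair1 stood first (292 FPKM), then Lgals9 (194), Sirpa (139.9), Cd47 (119), Cd86 (66.01), Havcr2 (27.7), Cd80 (15.0), Cd40 (11.7), Cd274 (7.65) and Pdcd1lg2 (0.0152). The order held within libraries for most neighbours: Lair1 was above Lgals9, Lgals9 above Sirpa, Cd47 above Cd86, Cd86 above Havcr2, Havcr2 above Cd80 and Cd274 above Pdcd1lg2 in 6 of 6 libraries. Sirpa exceeded Cd47 in 4 of 6 libraries, Cd80 exceeded Cd40 in 5 of 6 and Cd40 exceeded Cd274 in 5 of 6, so those neighbours were not separated beyond their spread. Over all libraries the ranges of neighbours overlapped, except for Cd274 and Pdcd1lg2. Lair1 lay between the 99.1 and 99.6 percentiles of all genes with a value in each library, and Cd274 between the 64.3 and 87.6 percentiles. These percentiles are over 37021 genes, of which 6708 were at 0 in all libraries, so they count undetected genes.

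**Figure D1:**
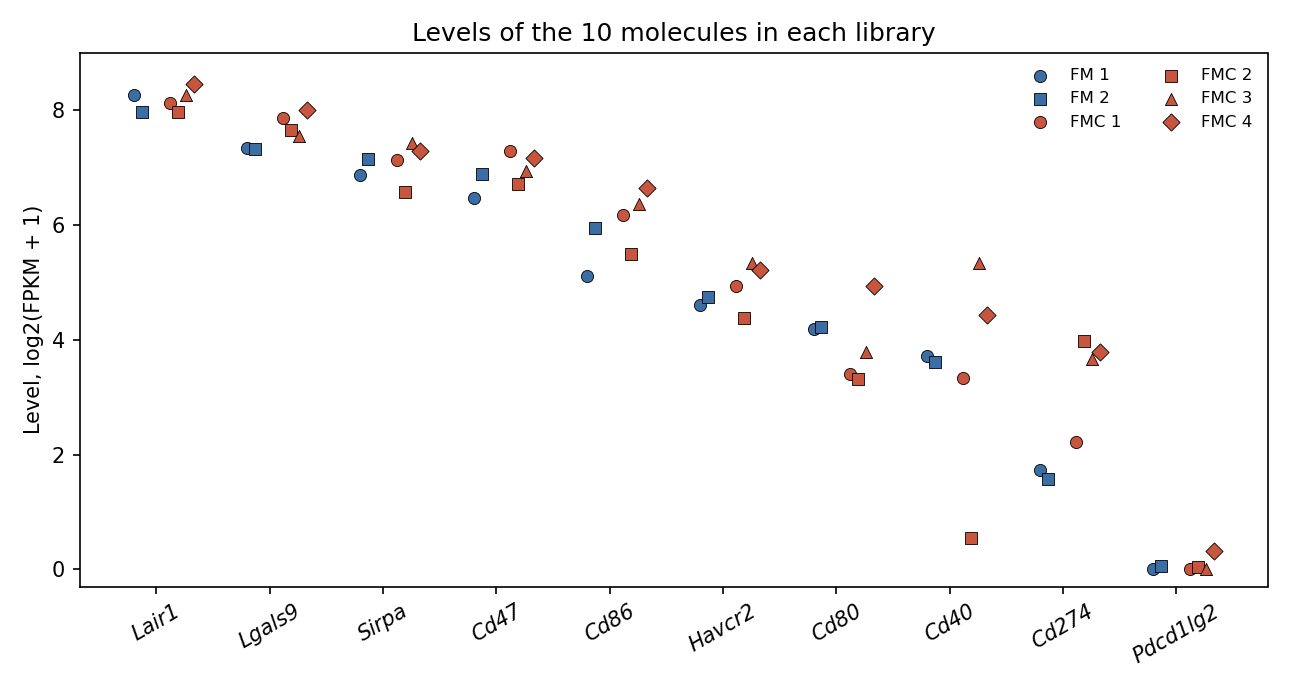
Level of each of the 10 molecules (vertical axis, log2(FPKM + 1)) in each library, with the molecules in order of their median; blue points are FM, red points FMC, and the shape gives the replicate. Only for Lgals9 and Cd274 do all FMC points lie above both FM points, and Cd40 has the widest spread.

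The fit across all genes called none of the members. Of 18208 genes tested, limma with Benjamini-Hochberg adjustment called 0 higher in FMC (0% of genes) and 5 lower (0.0275%), and at an unadjusted p under 0.05 there were 208 higher (1.14%) and 765 lower (4.2%). Pdcd1lg2 did not reach 1 FPKM in any library and was not tested, and of the other 9 members 0 were called in either direction. Of these 9, 7 had a log2 difference above 0, against 43.5% of all genes, and their median was 0.29, against -0.12 for all genes tested. In 2 of the 9, Cd274 and Lgals9, every FMC library exceeded both FM libraries, against 790 genes or 4.34% of all, and in 0 every FMC library was under both, against 1496 genes or 8.22%. Cd274 was the only member with an unadjusted p under 0.05. These counts describe 9 members chosen with earlier results known.

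**Figure D2:**
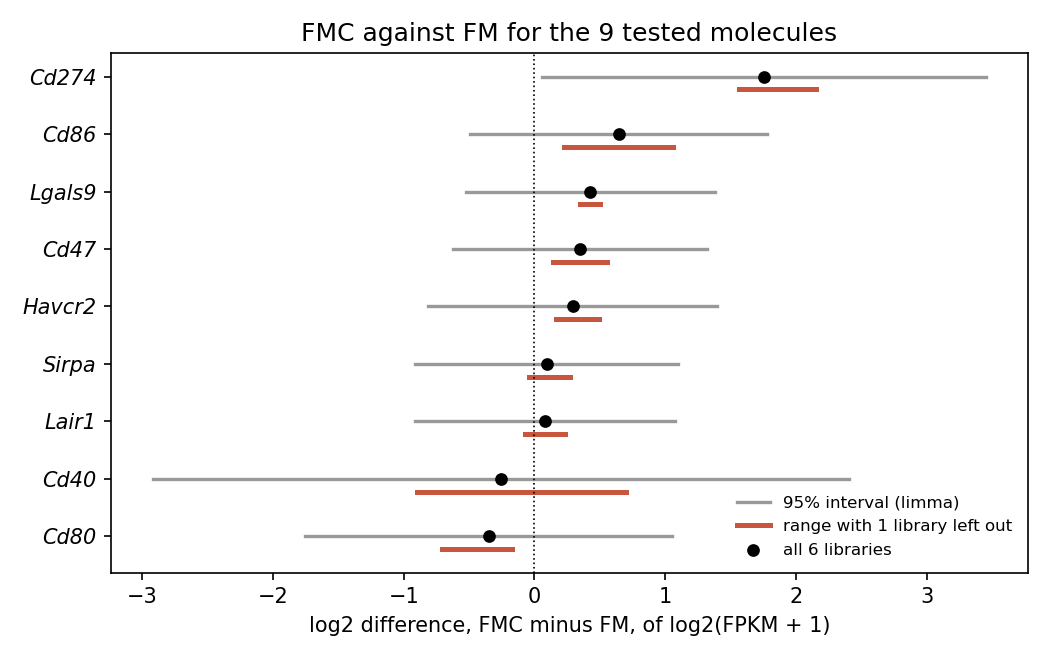
Difference between FMC and FM (horizontal axis, log2 scale) for the 9 tested molecules: black points are the estimates from all 6 libraries, grey lines their 95% intervals from limma, and red lines the range when each library is left out in turn. The interval of Cd274, from 0.06 to 3.45, is the only one that lies above 0 before adjustment over all genes.

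Of the PD-1 ligands, Cd274 was the higher by far and had the largest difference of all members. The gene (ENSMUSG00000016496) lies on chromosome 19 from 29441944 to 29462585 in mm9, the build of the deposited table. FM 1 held 2.32 FPKM of Cd274 and FM 2 1.99 FPKM, while FMC 1 to FMC 4 held 3.67, 14.8, 11.6 and 12.8 FPKM. The FM libraries were low and alike, FMC 1 was slightly above them, and the other 3 FMC libraries were several times higher. The FM mean was 2.16 ± 0.24 FPKM (SD, n = 2) and the FMC mean 10.7 ± 4.9 FPKM (SD, n = 4). On the log2(FPKM + 1) scale limma put FMC higher by 1.76 ± 0.75 (SE), which did not pass over all genes (Benjamini-Hochberg adjusted p = 0.895). Among all genes tested 7.28% had a larger difference in either direction. With 1 library left out the difference ran from 1.56 (without FMC 2) to 2.15 (without FMC 1), and between libraries whose titles are dated 1 day apart it was 2.25 (FMC 2 minus FM 1, both male) and 2.08 (FMC 3, male, minus FM 2, female).

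Pdcd1lg2 (ENSMUSG00000016498), the neighbour of Cd274 that starts 22823 bases beyond its end in mm9, was close to undetected. It was listed at 0 in FM 1, FMC 1 and FMC 3, and was at 0.0369 FPKM in FM 2, 0.0305 FPKM in FMC 2 and 0.246 FPKM in FMC 4. The difference of 0.06 on the log2(FPKM + 1) scale was not separated by an exact permutation test (two-sided p = 0.933), in which 15 arrangements of 4 and 2 libraries cannot give less than 0.0667. Cd274 exceeded it in every library.

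Cd80 and Cd86, the ligands shared by CD28 and CTLA-4, had differences of opposite sign. Cd86 (ENSMUSG00000022901, chromosome 16 from 36603954 to 36666167) measured 33.7 and 60.5 FPKM in FM 1 and FM 2 against 71.5, 44.2, 81.1 and 99.7 FPKM across FMC 1 to FMC 4. FMC 2 lay between the FM libraries and the other 3 FMC libraries lay above both. The log2 difference of 0.64 ± 0.50 (SE) did not pass (limma, adjusted p = 0.993). Its 95% interval ran from -0.49 to 1.78, and the difference was 0.23 without FM 1 and 1.06 without FM 2. Cd80 (ENSMUSG00000075122, chromosome 16 from 38459012 to 38495821) measured 17.3 and 17.8 FPKM in the FM pair against 9.61, 9.001, 12.7 and 29.5 FPKM across FMC 1 to FMC 4. Thus 3 FMC libraries lay below both FM libraries and FMC 4 lay above them, and the log2 difference was -0.35 ± 0.62 (SE, limma, adjusted p = 0.999), or -0.71 without FMC 4. Its 95% interval ran from -1.75 to 1.05. Within a library, where scaling cancels, the ratio of Cd86 to Cd80 was 1.95 and 3.40 in FM and 7.44, 4.91, 6.37 and 3.38 in FMC 1 to FMC 4. The ratio, examined after its values were seen, averaged 2.68 ± 1.03 (SD, n = 2) over FM and 5.53 ± 1.77 (SD, n = 4) over FMC (exact two-sided permutation test, p = 0.2, or 0.6 adjusted over 3 ratios).

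Cd40, the receptor for T cell help, varied more between FMC libraries than between the groups. The gene (ENSMUSG00000017652) lies on chromosome 2 from 164881126 to 164898448. Cd40 measured 12.2 and 11.2 FPKM in the FM pair against 9.04, 0.468, 39.5 and 20.6 FPKM across FMC 1 to FMC 4. Both FM libraries were alike, FMC 2 was 84.3 times under FMC 3, and the FM values lay in the middle of the FMC range. The log2 difference was -0.26 ± 1.18 (SE, limma, adjusted p = 0.999), with a 95% interval from -2.92 to 2.41, and it turned to 0.70 without FMC 2. The FMC mean of 17.4 FPKM was above the FM mean of 11.7 FPKM, so the difference of means and the log2 difference have opposite signs. The pairs dated 1 day apart went opposite ways, -3.17 for FMC 2 minus FM 1 and 1.73 for FMC 3 minus FM 2. CD40 is also a protein of B cells and dendritic cells. The 9 B cell markers, of which 0 were at 0 in all libraries, summed to 54.4 and 121 FPKM in the FM pair against 156, 36.5, 74.7 and 59.5 FPKM across FMC 1 to FMC 4. Of the 8 that were tested, 7 were higher in FMC and 1, Cd79b, was lower (median 0.46). Only Cd79a, a chain of the B cell receptor, was above both FM libraries in all FMC libraries. Cd79b measured 25.4 and 98.4 FPKM in the FM pair against 45.8, 2.33, 7.96 and 26.6 FPKM across FMC 1 to FMC 4. It made up most of the FM 2 sum. The 9 dendritic cell markers, again with 0 at 0 throughout, summed to 67.4 and 74.8 FPKM in the FM pair against 45.03, 86.7, 62.5 and 55.8 FPKM across FMC 1 to FMC 4. FMC 2, with the least Cd40, thus had the lowest B cell sum, and Cd79b was also lowest there. FMC 2 had the highest dendritic cell sum, of which the single gene Clec9a held 33.5 FPKM. FMC 1, with the next lowest Cd40, had the highest B cell sum. The part of B or dendritic cell RNA in the Cd40 values was not tested.

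In the TIM-3 axis the ligand was higher in every FMC library while the receptor overlapped. Lgals9 (ENSMUSG00000001123, chromosome 11 from 78776475 to 78798448) measured 162 and 160.1 FPKM in the FM pair against 233, 201, 187 and 256 FPKM across FMC 1 to FMC 4. Every FMC library exceeded both FM libraries, though the step was small. The FM mean was 161.2 ± 1.6 FPKM (SD, n = 2) and the FMC mean 219 ± 31 FPKM (SD, n = 4), and limma gave 0.43 ± 0.42 (log2, SE) for the difference, which did not pass (adjusted p = 0.994). The 95% interval was -0.52 to 1.38. Both the SE and the interval draw on genes of similar level, not only on the spread of Lgals9. The difference ran from 0.35 to 0.50 with 1 library left out and was 0.30 and 0.22 between the pairs dated 1 day apart. Havcr2 (ENSMUSG00000020399, chromosome 11 from 46268436 to 46294757) measured 23.2 and 26.002 FPKM in the FM pair against 29.5, 19.8, 39.7 and 36.4 FPKM across FMC 1 to FMC 4. FMC 2 lay below both FM libraries and the other FMC libraries above them (log2 difference 0.29 ± 0.49 SE, limma, adjusted p = 0.999). The ratio of Lgals9 to Havcr2 was 6.99 and 6.16 in FM and between 4.70 and 10.1 in FMC (exact permutation p = 0.733).

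The inhibitory receptors Lair1 and Sirpa and the ligand Cd47 were abundant and steady. Lair1 (ENSMUSG00000055541, chromosome 7 from 3958674 to 4014806) measured 309 and 250.07 FPKM in the FM pair against 278, 249, 305 and 352 FPKM across FMC 1 to FMC 4. The groups overlapped fully below FMC 4, and the log2 difference was 0.08 ± 0.44 (SE, limma, adjusted p = 0.999), with a 95% interval from -0.91 to 1.07. Sirpa (ENSMUSG00000037902, chromosome 2 from 129418570 to 129457964) measured 117 and 141 FPKM in the FM pair against 139, 94.2, 171 and 156 FPKM across FMC 1 to FMC 4. FMC 2 was the lowest library, both FM libraries lay inside the FMC range, and the difference of 0.09 ± 0.45 (SE, limma, adjusted p = 0.999) had an interval from -0.92 to 1.10, and the sign of both receptors turned under several alternatives. Reads of Sirpa may be shared with the related Sirpb1 genes, which were at or under 21.7 FPKM. Cd47 (ENSMUSG00000055447, chromosome 16 from 49855730 to 49915123) measured 88.01 and 117 FPKM in the FM pair against 156, 104, 122 and 144 FPKM across FMC 1 to FMC 4. FMC 2 lay between the FM libraries and the other FMC libraries above them, with a limma difference of 0.35 ± 0.43 (log2, SE; adjusted p = 0.999). A further row of the table with the symbol Cd47, 1817 bases at the gene's end from 49913305 to 49915121, has no value in any library. The ratio of Cd47 to Sirpa was 0.754 and 0.834 in FM and 1.12, 1.10, 0.711 and 0.921 in FMC 1 to FMC 4 (exact permutation p = 0.4).

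Against other abundant genes these molecules varied little. Of the 1666 genes with a mean of at least 50 FPKM, 1.38% had a smaller SD over the 6 libraries (log2 scale) than Lair1, 4.62% than Lgals9, 6.66% than Cd47 and 7.38% than Sirpa. Cd86 was nearer the middle, with 36.8% of those genes varying less. The highest library exceeded the lowest by 1.41 times for Lair1, 1.6003 for Lgals9, 1.77 for Cd47 and 1.82 for Sirpa, against 7.46 times for Cd274.

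Individual libraries stood out in several members at once. FMC 2 held the lowest value of 5 of the 9 tested members (Cd80, Cd40, Havcr2, Lair1 and Sirpa) and at the same time the highest Cd274. After median ratio scaling, in which the factor of FMC 2 was 0.935 in a range from 0.881 to 1.16, FMC 2 was still the lowest for 4. FMC 4 was highest for 4 members (Cd80, Cd86, Lgals9 and Lair1) and FMC 3 for 3 (Cd40, Havcr2 and Sirpa). Cd40, Havcr2 and Sirpa shared FMC 3 as the highest, FMC 4 as the next and FMC 2 as the lowest library. How often these libraries were lowest or highest over all genes was not counted, so the pattern need not be particular to these molecules. The part of sequencing depth in these values was not tested.

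**Figure D3:**
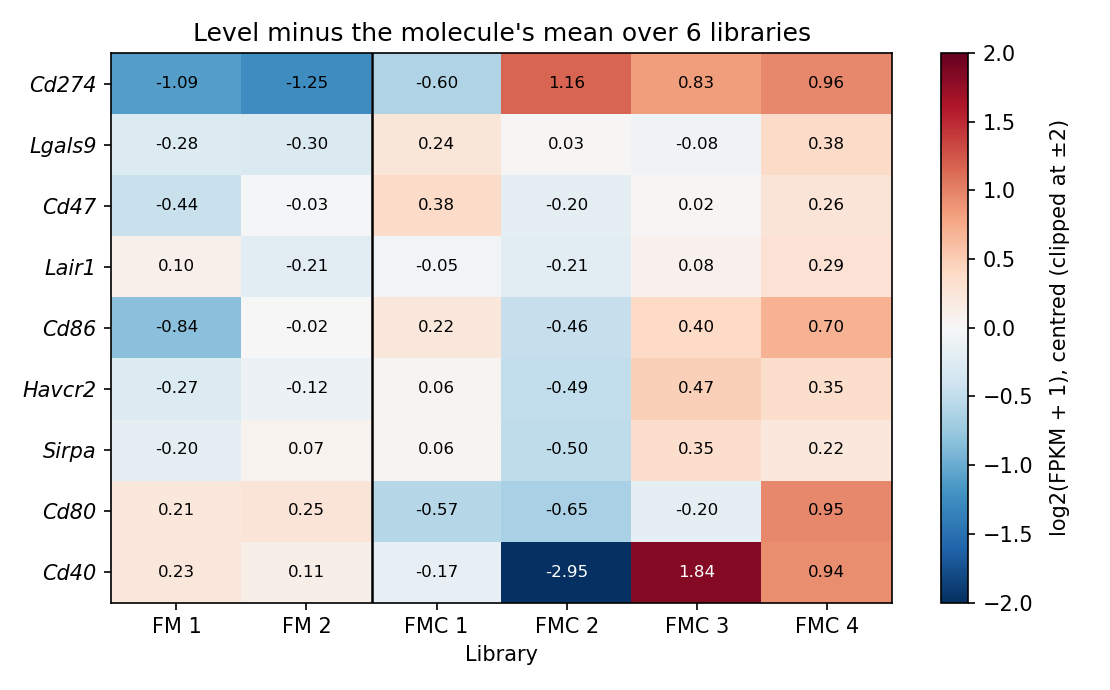
Level of each tested molecule in each library (columns) minus its own mean over the 6 libraries, on the log2(FPKM + 1) scale, with the number printed in each cell; red is above and blue below the mean, and the line separates FM from FMC. Cd274 is at -1.09 and -1.25 in FM and at 1.16 in FMC 2, where Cd40 is at -2.95.

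By the smallest root mean square distance between centred log2 profiles over the 6 libraries, among 8175 candidate genes, a gene close to Cd274 was Timm9 (0.275). The closest to Lgals9 were Tmod3 (0.0939) and Atxn7l1 (0.112), to Cd86 Mknk1 (0.130) and Trappc8 (0.131), and to Cd80 Hnrnpa2b1 (0.0892) and Smc3 (0.110). Ranbp9 (0.0578) and Morc3 (0.0996) lay nearest to Havcr2, Ndufb8 (0.0459) and Rock2 (0.0708) to Lair1, and Sptlc1 (0.0519) and Ptprj (0.0739) to Sirpa. Tnpo3 (0.0544) was nearest to Cd47 among the genes reported here. These distances are a description over 6 libraries and were not tested.

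No member passed for sex. With genotype in the fit, limma called 0 genes between male and female libraries (0%, with 1354 at an unadjusted p under 0.05) and 0 for the interaction of sex and genotype (0%, with 686). Since no gene at all was called, the lack of a call does not show that the members are alike between the sexes. The largest sex difference was -0.60 ± 0.41 (SE, male minus female) for Cd86 (adjusted p = 0.805), with means of 77.3 FPKM in female and 53.001 FPKM in male libraries. Cd274 was close in size with the opposite sign, 0.60 ± 0.71 (SE, limma, adjusted p = 0.932), with means of 6.14 FPKM in female and 9.60 FPKM in male libraries. Cd40 was at -0.59 ± 1.16 (SE). For Lair1 both male FMC libraries lay below FM 1 and both female FMC libraries above FM 2, but the interaction was -0.49 ± 0.66 (SE, limma, adjusted p = 0.999).

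Partner genes were read from lists of known ligands, receptors and signalling proteins, and 0 of their genes passed over all genes in the limma fit. Cd300lf and Col1a1 were the partner genes with an unadjusted p under 0.05. The counts and medians of the lists that follow stand beside 43.5% of all tested genes higher and a median of -0.12. Of the genes listed for PD-L1 induction and stability, 6 of 9 tested were higher and 3 lower (median 0.15). Stat3, a transcription factor activated by cytokine receptors, measured 38.1 and 59.8 FPKM in the FM pair against 74.6 to 117 FPKM across FMC. Every FMC library exceeded both FM libraries for Stat3 (log2 difference 0.97 ± 0.44 SE, limma, adjusted p = 0.961). The interferon gamma receptor chains were not higher on average: Ifngr1 averaged 311 ± 105 FPKM (SD, n = 2) over FM against 199 ± 35 FPKM (SD, n = 4) over FMC, and Ifngr2 averaged 87.04 ± 0.66 and 86.2 ± 28.01 FPKM.

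Receptors through which lymphocytes read such ligands differed widely in level. Of 14 such genes listed, 10 were tested, 6 of them higher and 4 lower, with a median of 0.34. Pdcd1, which encodes PD-1, measured 0.0441 and 2.92 FPKM in the FM pair against 0.565 to 2.95 FPKM across FMC, and Cd28 was between 0.0819 and 2.72 FPKM over all libraries. Lag3, an inhibitory receptor of the same list that is named after its values were seen, was between 29.8 and 93.7 FPKM, above Cd274 in every library. Tnfrsf18, the costimulatory receptor GITR, measured 1.91 and 8.35 FPKM in the FM pair against 0.468 to 1.296 FPKM across FMC, below both FM libraries throughout. The 11 T cell markers, with 0 at 0 in all libraries, summed to 27.4 and 37.2 FPKM in the FM pair against 275, 87.1, 67.4 and 32.001 FPKM across FMC 1 to FMC 4, and 9 of 10 tested were higher (median 1.03). FMC 1, with the highest T cell sum, had the lowest Cd274 of the FMC libraries. The part of T cell RNA in the Cd274 difference was not tested.

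Of the other ligands of the B7 and butyrophilin families, 3 of 6 tested genes were higher and 3 lower (median 0.00). Icosl, the ligand of the costimulatory receptor ICOS, measured 62.3 and 81.5 FPKM in the FM pair against 51.6 to 89.7 FPKM across FMC, above Cd80 in every library. Cd276, or B7-H3, was between 0.248 and 8.30 FPKM, and Btnl2 measured 2.80 and 4.53 FPKM in the FM pair against 0.201 to 2.23 FPKM across FMC. Of the costimulatory ligands of the TNF family only 2 of 6 were tested, Tnfsf9 (4-1BB ligand) and Tnfsf8 (CD30 ligand), with log2 differences of -0.32 and 0.32. In the nectin and poliovirus receptor group 2 of 4 were higher (median 0.22): Pvr ranged from 5.21 to 29.02 FPKM and Pvrl2 from 5.48 to 18.6 FPKM, and Pvrl3 measured 3.81 and 4.37 FPKM in the FM pair against 0.556 to 1.58 FPKM across FMC.

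Other inhibitory receptors of myeloid cells went both ways, 5 of 13 higher and 8 lower (median -0.13). Cd300lf had the largest difference of all partner genes: it measured 4.09 and 5.12 FPKM in the FM pair against 13.5, 53.4, 16.4 and 70.2 FPKM across FMC 1 to FMC 4 (log2 difference 2.49 ± 0.76 SE, limma, adjusted p = 0.664). FMC 2 and FMC 4 were highest, as they were for Cd274. Clec4a2, an inhibitory lectin receptor, measured 262 and 336 FPKM in the FM pair against 215, 40.8, 125 and 155 FPKM across FMC 1 to FMC 4 (log2 difference -1.37 ± 0.66 SE, limma, adjusted p = 0.982). Cd300a measured 22.5 and 19.3 FPKM in the FM pair against 6.56 to 15.2 FPKM across FMC. Lilrb3 and Lilrb4, members of a family whose copies may share reads, had log2 differences of -0.69 and 0.34. Of the phosphatases these receptors recruit, Ptpn6 (SHP-1) measured 94.03 and 261 FPKM in the FM pair against 116 to 473 FPKM across FMC, and Ptpn11 (SHP-2) was between 2.61 and 8.17 FPKM.

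Genes of CD40 signalling were higher in 7 of 11 and lower in 4 (median 0.35). Birc3, an inhibitor of apoptosis that is recruited with TRAF proteins, measured 15.9 and 19.9 FPKM in the FM pair against 20.0, 53.6, 21.3 and 38.4 FPKM across FMC 1 to FMC 4, with FMC 2 the highest although Cd40 was lowest there. The adaptors Traf1 and Traf2 ranged from 0.0685 to 8.68 FPKM and from 0.361 to 6.69 FPKM. Of the partners of CD47 and the SIRP receptors 7 of 9 were higher and 2 lower (median 0.23). Fyb, a leukocyte adaptor, measured 186 and 180.04 FPKM in the FM pair against 217 to 303 FPKM across FMC, and Thbs1, a secreted ligand of CD47, measured 6.30 and 9.27 FPKM in the FM pair against 3.41 to 5.36 FPKM across FMC (log2 differences 0.49 ± 0.43 and -0.74 ± 0.67 SE).

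Known ligands of LAIR-1 were lower in 7 of 8 tested genes (median -0.38), where the median of all genes was -0.12. The lower genes included C1qa (-0.24) and C1qc (-0.06). The collagen gene Col1a1 measured 8.39 and 8.90 FPKM in the FM pair against 3.76, 0.771, 1.91 and 0.680 FPKM across FMC 1 to FMC 4 (log2 difference -1.93 ± 0.78 SE, limma, adjusted p = 0.853), and Col3a1 measured 3.55 and 3.67 FPKM in the FM pair against 0.0482 to 2.91 FPKM across FMC. The complement genes were far more abundant, with C1qa between 216 and 937 FPKM and C1qb between 576 and 1429 FPKM, and overlapped between groups. Partners of TIM-3 and galectin-9 were lower in 6 of 6 (median -0.55), where 10285 of all 18208 genes tested were lower. Their median was -1.14 without FM 1 and -0.32 without FM 2. The groups overlapped for all 6, among them Ceacam1 (between 8.03 and 26.8 FPKM) and Hmgb1 (between 28.6 and 107 FPKM). Border-associated macrophage markers were also lower, 7 of 7 (median -0.82). Of these 0 were at 0 throughout, and their sums of 429 and 552 FPKM in FM did not overlap with 187 to 346 FPKM in FMC. By gene, only 2 of the 7, Mrc1 and Pf4, were below both FM libraries in all FMC libraries, against 8.22% of all genes. The groups overlapped for the rest, among them Cbr2, with 119 and 158 FPKM in FM and 18.6 to 151 FPKM in FMC. Microglia markers were lower in 14 of 14 (median -0.22), but this rested on FM 2. Their median was 0.20 without FM 2, -0.72 without FM 1 and -0.07 after median ratio scaling. Their sums overlapped, with 4481 and 10905 FPKM in FM 1 and FM 2 against 4885 to 9606 FPKM in FMC. The sums of monocyte, astrocyte, oligodendrocyte and endothelial markers also overlapped between the groups. The part of such cells in the values of the members was not tested.

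**Figure D4:**
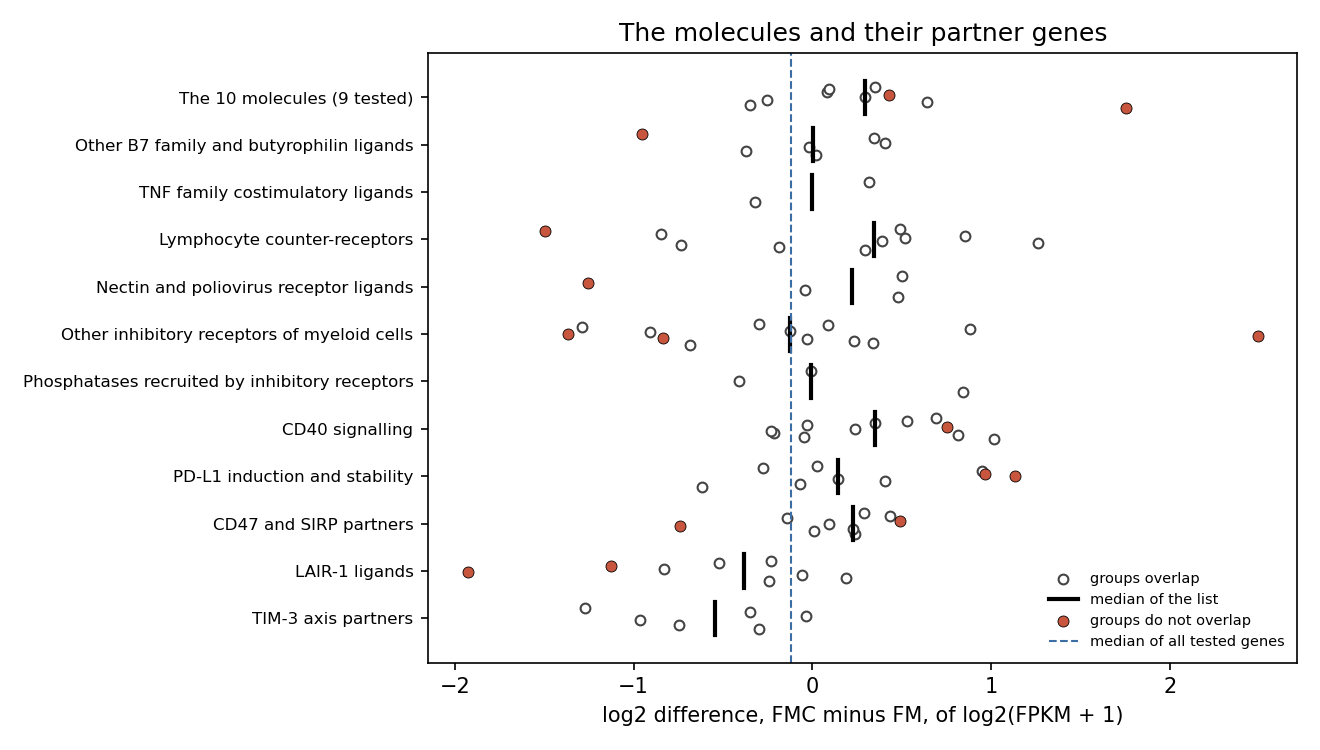
Difference between FMC and FM (horizontal axis, log2 scale) of each tested gene, by list; filled points are genes whose FMC and FM libraries do not overlap, black bars the list medians and the dashed line the median of all tested genes, -0.12. The filled points of the molecules themselves are Lgals9 at 0.43 and Cd274 at 1.76, and the farthest partner gene is Cd300lf at 2.49.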

How the data were processed

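Microglia from 6 libraries, 2 FM and 4 FMC, were profiled by RNA-seq after amplification of small inputs. The deposited table holds FPKM by the authors per Ensembl gene and library, with positions in mm9. Tools named in the submitters' processing notes, with no role stated, are Cufflinks 2.0.2, TopHat2 2.0.4, Bowtie2 2.0.0 and CASAVA 1.8.2. Strand use in counting is not stated. No count test was applied, since an FPKM is not a count. Of 37447 rows, 426 lack a value in some library and were left out. The 18208 genes that reached 1 FPKM in 2 or more libraries were tested as log2(FPKM + 1), which understates changes of low genes, with limma 3.58.1 in R 4.3.3 across all genes: intensity trend, two-sided, Benjamini-Hochberg adjustment, threshold 0.05, 4 residual degrees of freedom. The scripts were tested on simulated data. The median residual SD was 0.87 (log2). Arrangements of 4 and 2 libraries gave the exact permutation tests. Relative depth is the commonest ratio of low values between libraries.

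The members and lists were chosen with earlier results of these data known. Named were all 10 members and, from each list, the first 2 tested genes and up to 4 whose groups do not overlap. For marker lists, mostly sums are given. Profiles were compared with named genes of at least 5 FPKM on average. Alternatives covered the pseudocount, filters, scaling, trend, weights, sex, blocks and each library left out. The ratios within a library were added after the data were seen. Neither replicate numbers nor title dates paired libraries, as described with the alternatives. Some genes that the rules would name are not reported here.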

Additional observations from a re-analysis of the deposited data

Results flagged for a closer look

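Among 70 genes examined in the 4 FMC libraries, 6 had a library far from the other 3 by Dixon's gap ratio. Chance gives this in about 1 of 20 groups of normally distributed values. The ratio was taken on FPKM, which was not tested for that distribution, so this rate need not hold here. In all 6 the far library was the highest. Pdcd1lg2 was at 0.246 FPKM in FMC 4 and at most 0.0305 FPKM in the others (gap ratio 0.876). Cd276 was at 8.30 FPKM in FMC 2, next to 0.508 FPKM (0.968), and Tnfsf9 at 5.90 FPKM in FMC 4, next to 1.10 FPKM (0.870). FMC 1 held the other 3: Traf1 at 8.68 FPKM next to 1.41 FPKM (0.851), the lymphoid homing receptor Ccr7 at 10.4 FPKM next to 1.84 FPKM (0.977) and the endothelial cadherin Cdh5 at 4.603 FPKM next to 0.524 FPKM (0.921).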

How the results depend on the processing

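Cd274, Cd86, Lgals9 and Cd47 stayed above 0 and Cd80 below 0 in all 16 alternatives, and no tested member passed the threshold in any. The adjusted p of Cd274 ran from 0.774 to 1.00 over them, with differences from 1.45 to 2.17. Changing the filter, leaving out the trend and adding sex leave the estimate of a tested member unchanged, so these settings could not turn a sign. For Cd274 and Lgals9, whose groups do not overlap, the pseudocount, the blocks and leaving out 1 library could not turn it either. The sign turned for Lair1 with quantile normalization (-0.031), the replicate block (-0.078) and the date block (-0.011). It turned for Sirpa with the replicate block (-0.16) and the date block (-0.013), and for Havcr2 with the replicate block (-0.024). With 1 library left out the difference ran from -0.071 to 0.23 for Lair1, from -0.040 to 0.27 for Sirpa, from -0.90 to 0.70 for Cd40 and from -0.012 to 0.094 for Pdcd1lg2 (without FMC 4 the lowest). The cause was not tested.

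The count of 5 lower genes became 0 with the pseudocount at 0.1, with the filter removed or raised to a mean of 5 FPKM, with sex as a covariate and with the replicate block, 1 with the date block and 10 without the trend. The count of 0 higher genes became 1 with the pseudocount of 0.1 and 2 with the date block. With 1 library left out there were 0 to 4 higher and 0 to 4 lower genes. The median of all genes moved from -0.12 to -0.01 with median ratio scaling and 0.02 with quantile normalization, where 49.6% and 51.2% of genes were higher. Deviations of same-numbered libraries correlated at 0.03 and -0.06 over genes, and those of libraries dated 1 day apart at 0.06 and -0.07. The deviations of the 2 FM libraries are equal and opposite, so these values are not independent. The replicate block thus pairs libraries by number only, and the date block by title date only. Of 335 list medians under the alternatives, 303 moved by less than the spread between replicates. Leaving out the trend and adding sex leave every list median unchanged, so under these settings none could move. Without either FM library the remaining FM library is assumed to vary like FMC. Depth is known only in relative terms, and values under 1 FPKM, as of Pdcd1lg2, rest on few fragments.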

Other observations

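Some genes outside the rule were singled out after their values were seen. The gene of VISTA, an inhibitory ligand of the B7 family that the table lists under its clone name, measured 203 and 688 FPKM in the FM pair against 421, 310, 403 and 351 FPKM across FMC 1 to FMC 4, a limma difference of -0.02 ± 0.57 (log2, SE; adjusted p = 0.999). It was above every other B7 family ligand measured here, Cd86 included, in each library. Lag3, an inhibitory receptor best known from T cells, measured 29.8 and 34.95 FPKM in the FM pair against 31.6, 29.8, 37.05 and 93.7 FPKM across FMC 1 to FMC 4.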
